A study of Homo sapiens with 6 samples.

Results

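The SLC25 genes encode the mitochondrial carriers, and 48 of them were found among the 57150 genes of the deposited table. Members were all genes whose symbol is SLC25A followed by a number. The table lists 49 such rows, and of the 2 rows for SLC25A10 the one with the higher mean FPKM was kept. Within this rule, measured values were used only for that choice between the 2 rows, of which the other was at 0 in both columns. The rule itself was set with earlier results of these data known. FPKM is a level corrected for transcript length and sequencing depth, so it can be compared between genes.

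Carriers of this family sit mostly in the inner mitochondrial membrane, which small metabolites cannot cross unaided. Each carrier is built from repeats of a pair of membrane-spanning helices and moves a particular set of solutes, often by exchanging the solute on either side. The ADP/ATP carriers export the ATP made by oxidative phosphorylation, the phosphate carrier supplies its other substrate, and further members move citrate and other acids of the tricarboxylic acid cycle, amino acids, cofactors, glutathione and iron. Carriers are encoded in the nucleus and reach the inner membrane through the TOM complex, small TIM chaperones and the TIM22 complex.

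The study compared K562 cells, a human leukemia line that the labels name for every sample, 72 h after transfection. In the group labelled KD, 3 samples received siRNAs that target αCP1 and αCP2 together, and in the group labelled CTRL, 3 samples received control siRNAs. The study treats these RNA-binding proteins, encoded by PCBP1 and PCBP2, as regulators of cassette exon splicing. By the paper's methods, each group mixed distinct siRNAs, and some of the libraries had been made for an earlier study. The table gives 1 FPKM value and 1 estimated count per gene and group, so no spread between the 3 samples of a group was available and no test was run.

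The labels did not match the values in 2 respects. For PCBP1 the FPKM was 184.1 in the KD-labelled column and 187.8 in the CTRL-labelled column, a log2 ratio of -0.03, and for PCBP2 it was 530.8 and 342.4, a log2 ratio of 0.63. In these RNA values the targets were thus not both lower where the label says they were depleted. The paper itself reports that depletion was seen in mRNA and in protein, with a Western blot shown. Every direction below is between columns named only by their labels. Among 14 erythroid marker genes, 9 stayed below an FPKM of 1 throughout and 7 were listed at 0, among them GATA1 and KLF1. Of the others, HBE1 was at 152.9 and 35.4 and TFRC at 133.7 and 65.7. HBG2 was at 4.33 and 1.63, EPOR at 3.55 and 5.08, and NFE2 at 0.502 and 1.03. Of 6 epithelial genes, the keratins KRT18 (2309 and 1748), KRT8 (1505 and 818.7) and KRT7 (539.5 and 604.3) were high, EPCAM was at 3.94 and 3.26, CDH1 was at 0.363 and 0.426, and KRT19 was listed at 0. What part these departures from the labels had in the values below was not tested. Total estimated counts were 13699340 (KD-labelled) and 11680567 (CTRL-labelled).

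The family spanned a wide range of levels. In both columns 4 members, SLC25A2, SLC25A31, SLC25A48 and SLC25A52, were listed at 0. SLC25A31 is the ADP/ATP carrier known from testis. A further 5 members, SLC25A18, SLC25A21, SLC25A34, SLC25A41 and SLC25A47, had a mean FPKM above 0 and under 1, with at most 17.6 estimated counts in either column. These 9 genes were left out of the ratios, and the 39 that remained had an FPKM averaging 1 or more. Of the 39, 12 had a mean under 10, 22 had a mean from 10 to under 100, and 5 had a mean of 100 or more.

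The 5 most abundant members were SLC25A5, SLC25A3, SLC25A6, SLC25A1 and SLC25A39. SLC25A5, an ADP/ATP carrier, had an FPKM of 762.2 in the KD-labelled column and 620.7 in the CTRL-labelled column and was the highest member in each. SLC25A3, the phosphate carrier, followed at 565.9 and 558.3. SLC25A6, another ADP/ATP carrier, was at 345.0 and 177.7. The order below them differed between the columns: SLC25A1, the citrate carrier, was at 213.4 and 118.2, and SLC25A39, which is required for mitochondrial glutathione uptake, was at 139.8 and 168.2. Together SLC25A5, SLC25A3 and SLC25A6 made up 63.1% of the summed FPKM of the family in the KD-labelled column and 59.4% in the CTRL-labelled column. Counted as estimated counts, which are not corrected for length, the same 3 genes held 54.6% and 47.1%.

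**Figure D1:**
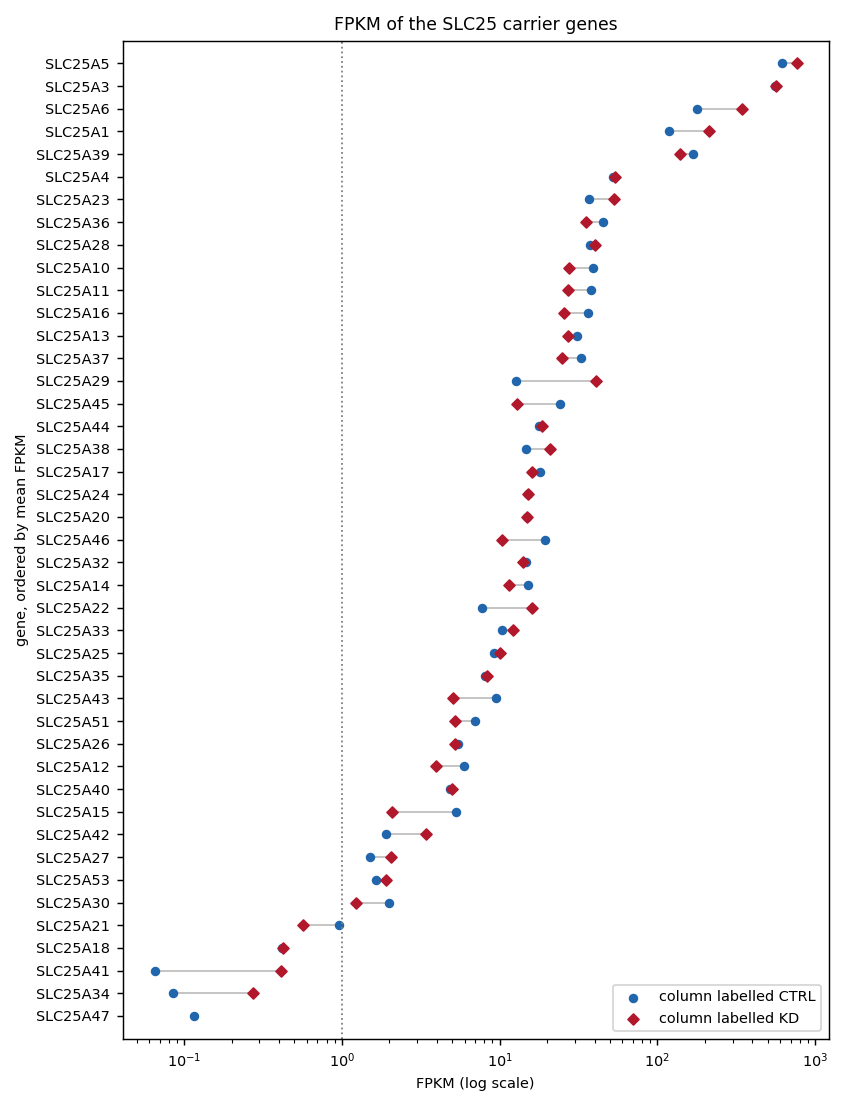
FPKM on a log axis for 43 SLC25 genes with a mean above 0, ordered by that mean; red diamonds are the KD-labelled column, blue circles the CTRL-labelled column, and the dotted line is an FPKM of 1. The genes span 762.2 to under 0.1, the 2 columns lie close together for most genes, and SLC25A29 is the widest-spaced of the genes above an FPKM of 10; SLC25A47 has no diamond because it is at 0 in the KD-labelled column.

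The question for the family was whether the carriers differed between cells that received αCP1/2 siRNAs and controls. Log2 ratios were taken of FPKM + 1, KD-labelled over CTRL-labelled, and are positive where the KD-labelled value is higher. The added 1 shrinks the ratio of genes with a low FPKM. The 39 members were centred on no difference, with a median log2 ratio of 0.003, against 0.015 for all 13741 genes with an FPKM averaging 1 or more. Their middle 50% lay between -0.38 and 0.25, and that of all genes between -0.34 and 0.45. Above 0 were 20 members and below 0 were 19, where 51.1% of all genes were above 0. A log2 ratio of 1 or more was reached by 1 member, SLC25A29, against 8.51% of all genes, and a log2 ratio of -1 or less by 1 member, SLC25A15, against 3.27% of all genes. After correction of all genes for GC content and transcript length, SLC25A29 was at 0.90 and 0 members reached 1. The same correction put 3 of 38 members at -1 or less, SLC25A10, SLC25A15 and SLC25A45. Of 13297 genes so corrected, 773 lay at 1 or more and 407 at -1 or less. In bulk RNA, fewer cells that express a gene and less RNA per cell cannot be told apart.

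**Figure D2:**
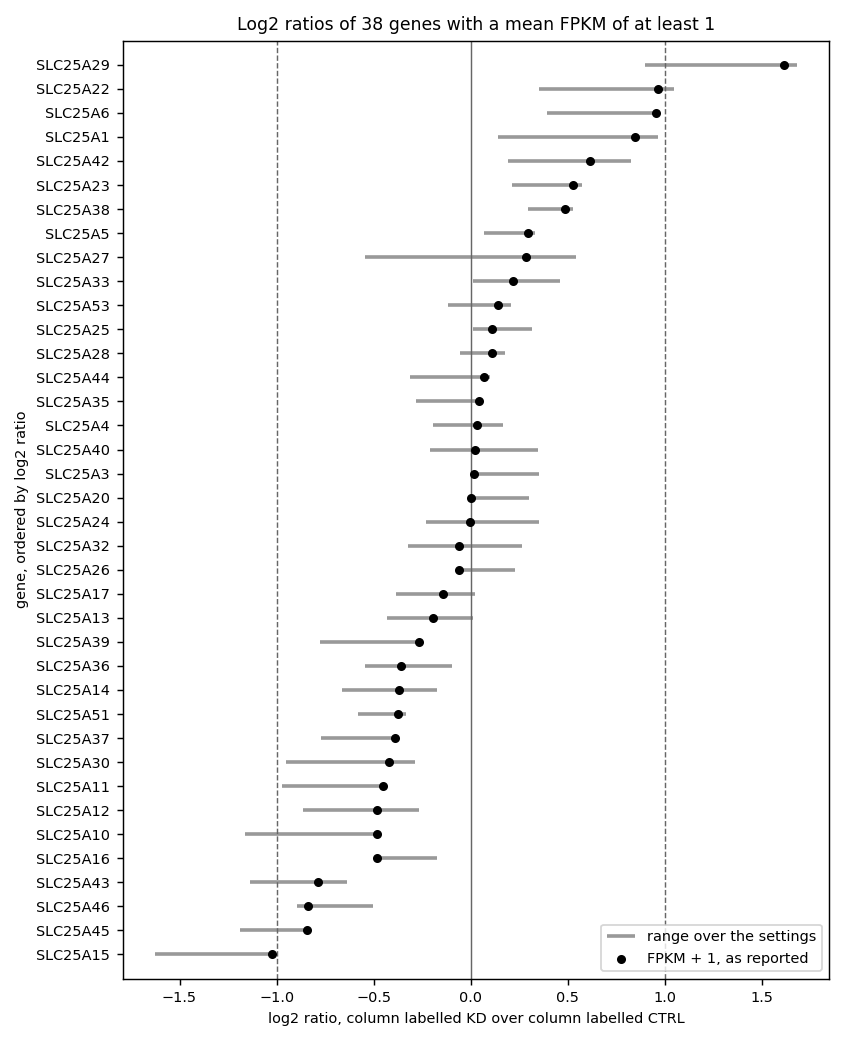
Log2 ratio of the KD-labelled over CTRL-labelled column for 38 SLC25 genes with an FPKM averaging 1 or more, ordered by ratio; black points are the values from FPKM + 1, grey bars the range over these and up to 5 other ways of computing the ratio, and dashed lines mark -1 and 1. SLC25A29 at 1.62 and SLC25A15 at -1.02 are the only points beyond the dashed lines, and 13 of the grey bars cross 0.

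Amino acid carriers held both of these genes. SLC25A29, which carries basic amino acids such as arginine and lysine, had an FPKM of 41.1 in the KD-labelled column and 12.7 in the CTRL-labelled column, from 1226 and 432.7 estimated counts, a log2 ratio of 1.62 that became 0.90 with that correction. As shares of the column totals, its counts gave a log2 ratio with a 95% exact binomial interval of 1.11 to 1.43. Like the other intervals here, it covers counting error only and treats the estimated counts as read counts. The column totals lie below the mapped read pairs the paper gives for any single library, so the true counting error is not known. Count shares lie 0.23 lower on the log2 scale than unscaled counts for every gene, because the KD-labelled column has the larger total. Unscaled here means not divided by these totals. A count was worth nearly the same FPKM in each column (median log2 ratio 0.003), so the counts were on the scale of FPKM. The 0.23 therefore cannot be read as a difference in sequencing depth. SLC25A29 lies on chromosome 14 from 100757453 to 100772884, minus strand, in GRCh37, and 9.31% of its exonic bases overlap exons of other genes on the opposite strand, which unstranded libraries could not separate.

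SLC25A15, the ornithine carrier of the urea cycle, was the gene at the other end. Its FPKM was 2.08 in the KD-labelled column and 5.28 in the CTRL-labelled column, and its log2 ratio was -1.02. It rested on only 35 and 93 estimated counts. The interval for the ratio of count shares, -2.24 to -1.06, lay below 0 if these estimates are taken as read counts. SLC25A15 lies on chromosome 13 from 41363548 to 41386596, plus strand, in GRCh37. Its close relative SLC25A2, also an ornithine carrier, was at 0 in both columns.

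The other amino acid carriers were nearer to equal, apart from SLC25A22. That gene, a glutamate carrier, had an FPKM of 16.2 and 7.77 and a log2 ratio of 0.97, just short of 1, from 517 and 266 counts (interval of the share ratio 0.51 to 0.95). SLC25A38, the glycine carrier whose loss causes a sideroblastic anemia through failed heme synthesis, was at 21.0 and 14.7, a log2 ratio of 0.49. The aspartate/glutamate carriers of the malate-aspartate shuttle both lay below 0, SLC25A12 at 3.98 and 5.96 (log2 ratio -0.48) and SLC25A13 at 27.0 and 31.0 (log2 ratio -0.20). SLC25A44, a carrier of branched-chain amino acids, was at 18.7 and 17.7. Of the 9 amino acid carriers 7 had an FPKM averaging 1 or more, with 4 log2 ratios above 0, 3 below 0 and a median of 0.07.

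The upstream sequences of the genes at the 2 ends, and of the pair of abundant ADP/ATP carriers described next, are shown because these 4 genes are the members past the threshold and the paralog pair whose log2 ratios, as taken from FPKM, lay furthest apart. Each is the stretch of 120 bases that ends just before the RefSeq transcription start, on the gene's own strand and in GRCh38.p14, a different build from that of the gene positions above. Capitals mark matches on either strand to the Sp1 motif GGGCGG. Capitals also mark the NF-Y motif CCAAT, found on either strand in the same way and directly beside an Sp1 match in SLC25A29. A TATA box match to the letters TATAAA is in capitals for SLC25A5.
SLC25A29, chr14:100306445-100306564, minus strand: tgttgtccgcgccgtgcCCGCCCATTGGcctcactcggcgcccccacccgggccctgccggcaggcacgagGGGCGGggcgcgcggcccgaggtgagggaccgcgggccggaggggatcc
SLC25A15, chr13:40789491-40789610, plus strand: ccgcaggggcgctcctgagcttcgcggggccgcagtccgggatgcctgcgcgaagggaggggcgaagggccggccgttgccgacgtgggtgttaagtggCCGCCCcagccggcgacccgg
SLC25A5, chrX:119468324-119468443, plus strand: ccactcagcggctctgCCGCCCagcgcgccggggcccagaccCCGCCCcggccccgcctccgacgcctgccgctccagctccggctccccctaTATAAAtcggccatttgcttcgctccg
SLC25A6, chrX:1392114-1392233, minus strand: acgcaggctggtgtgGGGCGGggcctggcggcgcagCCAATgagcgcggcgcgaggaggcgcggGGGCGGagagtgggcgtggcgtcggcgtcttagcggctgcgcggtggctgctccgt

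These stretches were all rich in G and C, at 80.8% for SLC25A29, 76.7% for SLC25A15, 74.2% for SLC25A5 and 77.5% for SLC25A6. In the 250 bases before the start, 28 of 40 members with a listed promoter held a GGGCGG match (70.0%), against 42.3% of 27305 listed promoters. For CCAAT the shares were 45.0% and 33.04%, for TATAAA 7.50% and 11.1%, for the E-box CACGTG 17.5% and 6.49%, and for CCGGAAG (GABPA), held by 8 members, the share of all promoters was 8.82%. The NRF1 motif was found in 4 members and in 5.53% of all promoters. The median GC content of the 250 bases was 65.6% for members and 58.0% for all. A match to these letters describes the sequence and not a bound site.

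Among the carriers of adenine nucleotides, the make-up of the ADP/ATP carriers differed between the columns. SLC25A5 and SLC25A6 are close paralogs that perform the same exchange, and SLC25A4 is the form best known from heart and muscle. SLC25A5 was higher in the KD-labelled column by a log2 ratio of 0.30, with 10396 and 8462 counts. SLC25A6 was higher by 0.95, with 8121 and 4181 counts. SLC25A4, at an FPKM of 53.6 and 52.4, had a log2 ratio of 0.03. The summed FPKM of the ADP/ATP carriers was 1161 in the KD-labelled column and 850.8 in the CTRL-labelled column, 1.36 times as high. The summed FPKM of all genes was also higher in the KD-labelled column, 1195358 against 927998. The log2 ratio of the sums was 0.45 for the ADP/ATP carriers and 0.37 for all genes.

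Within the sum of the ADP/ATP carriers, SLC25A6 took 29.7% in the KD-labelled column and 20.9% in the CTRL-labelled column. SLC25A5 took 65.7% and 73.0%, and SLC25A4 took 4.62% and 6.16%. The FPKM of SLC25A5 was 2.21 times that of SLC25A6 in the KD-labelled column and 3.49 times in the CTRL-labelled column. A ratio of 2 genes within a column does not depend on how the column was scaled. The difference of their log2 ratios was 0.66 in favour of SLC25A6, with a 95% exact interval from the counts of 0.59 to 0.73. It was 0.06 after the correction for GC content and length, which put SLC25A5 at 0.33 and SLC25A6 at 0.40. SLC25A6 lies in the pseudoautosomal region of chromosome X, from 1505045 to 1511006 in GRCh37, and SLC25A5 on the same chromosome from 118602385 to 118605359. How reads that fit both paralogs were assigned is not given in the sources used here, so their separate levels are uncertain to that extent. Pseudogenes took few reads: 29 of 36 rows named as SLC25 pseudogenes were at 0 in both columns, and the highest FPKM among the others was 1.18.

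The calcium-regulated ATP-Mg/phosphate carriers differed among themselves. SLC25A23 had an FPKM of 53.3 in the KD-labelled column and 36.8 in the CTRL-labelled column, a log2 ratio of 0.53. SLC25A24 was at 15.1 and 15.2, and SLC25A25 at 9.996 and 9.18. The ratio of SLC25A23 to SLC25A24 was 3.52 and 2.42, and the difference of their log2 ratios was 0.53 (interval from the counts 0.38 to 0.77). With the correction for GC content and length this difference turned to -0.14, with SLC25A23 at 0.21 and SLC25A24 at 0.35. SLC25A17, the peroxisomal carrier of the family, was at 16.1 and 17.9, and SLC25A42, which carries coenzyme A, was at 3.43 and 1.89, a log2 ratio of 0.62, with an interval of the share ratio from -0.29 to 0.69 that includes equal shares. Of the 8 adenine nucleotide carriers with an FPKM averaging 1 or more, 6 lay above 0 and 2 below, with a median of 0.20. The group made up 47.5% of the family's summed FPKM in the KD-labelled column and 40.8% in the CTRL-labelled column.

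**Figure D3:**
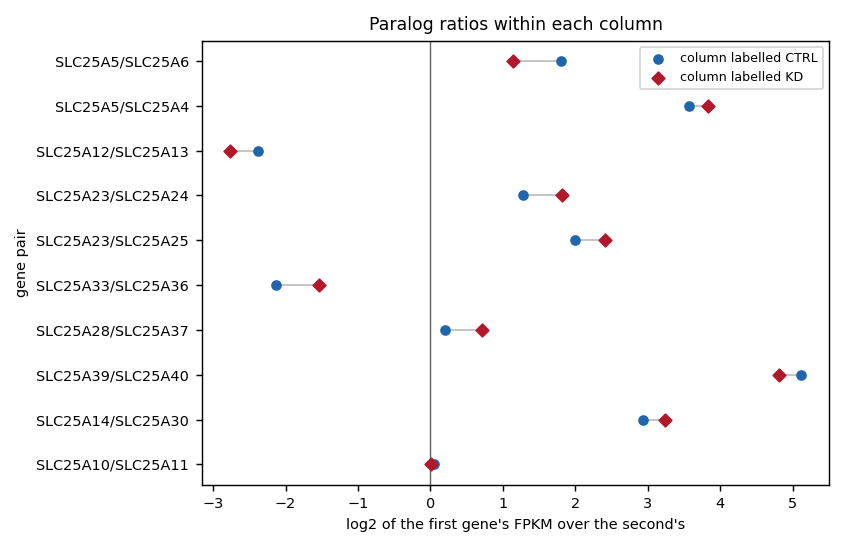
Log2 of the FPKM of the first-named gene over that of the second, within the KD-labelled column (red diamonds) and the CTRL-labelled column (blue circles), for the 10 paralog pairs in which both genes had an FPKM averaging 1 or more. SLC25A5/SLC25A6 moves from 1.80 in the CTRL-labelled column to 1.14 in the KD-labelled column, the widest gap of the 10, while SLC25A10/SLC25A11 stays near 0 in both.

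Other pairs of related carriers were compared in the same way. The mitoferrins import iron for heme and iron-sulfur clusters. SLC25A28, the form found in most tissues, was at 40.5 in the KD-labelled column and 37.5 in the CTRL-labelled column, while SLC25A37, the form known from developing red cells, was at 24.8 and 32.7. Their ratio was 1.63 and 1.14, and the difference of their log2 ratios was 0.50 from FPKM and 0.72 from counts (interval 0.49 to 0.95). For the pyrimidine nucleotide carriers, SLC25A33 was at 12.2 and 10.3 and SLC25A36 at 35.2 and 45.4, and the difference of their log2 ratios was 0.58 (interval 0.23 to 0.88).

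SLC25A39 exceeded its paralog SLC25A40 by 28.2 times in the KD-labelled column and 34.6 times in the CTRL-labelled column. SLC25A40 itself was at 4.96 and 4.86. The difference of their log2 ratios was -0.29, and -1.12 after the correction. The uncoupling-protein-like SLC25A14 exceeded SLC25A30 by 9.42 and 7.67 times, and the interval of the difference of their log2 ratios, -0.30 to 0.89, included 0. For SLC25A12 and SLC25A13 the same difference was -0.29 (interval from the counts -0.79 to -0.08). No ratio was taken for 4 pairs in which 1 gene averaged under an FPKM of 1. These were SLC25A18 (0.423 and 0.416) beside SLC25A22, SLC25A34 (0.273 and 0.0848) beside SLC25A35 (8.31 and 8.05), SLC25A2 beside SLC25A15, and SLC25A31 beside SLC25A5.

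The carriers of organic acids and phosphate were split. SLC25A1, which exports the citrate used for fatty acid and sterol synthesis, had a log2 ratio of 0.85, from 3796 and 1942 counts (interval of the share ratio 0.66 to 0.82). The dicarboxylate carrier SLC25A10 was at 27.5 and 38.9, a log2 ratio of -0.48, and the oxoglutarate carrier SLC25A11 was at 27.3 and 37.7, a log2 ratio of -0.45. SLC25A3 had a log2 ratio of 0.02. Exons of other genes cover 46.6% of the exonic bases of SLC25A10, so its level is less certain. Another member of this group, SLC25A21, a carrier of oxodicarboxylates, was under an FPKM of 1 in both columns.

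The members placed in none of the substrate groups included several that were lower in the KD-labelled column. Of 9 such genes 6 had an FPKM averaging 1 or more, and 4 of these lay below 0, with a median log2 ratio of -0.64. SLC25A46, an outer membrane protein tied to mitochondrial shape, was at 10.4 in the KD-labelled column and 19.3 in the CTRL-labelled column, a log2 ratio of -0.84. SLC25A45 was at 12.9 and 24.05, also -0.84, and SLC25A43 was at 5.10 and 9.53, a log2 ratio of -0.79. The intervals of their share ratios, -1.003 to -0.66, -1.39 to -0.99 and -1.42 to -0.86, all lay below 0. SLC25A16 was at 25.6 and 36.3, a log2 ratio of -0.48.

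SLC25A32, which supplies folate and FAD, was at 14.0 and 14.6, although exons of other genes cover 80.8% of its exonic bases. SLC25A26, the S-adenosylmethionine carrier, was at 5.21 and 5.48, and SLC25A51, which carries NAD, was at 5.18 and 7.01. The carnitine/acylcarnitine carrier SLC25A20, which brings fatty acids in for oxidation, was at 15.0 and 14.9. SLC25A51 had a log2 ratio of -0.37, and SLC25A26 had one of -0.06. The interval of the share ratio of SLC25A51, -0.98 to -0.19, includes -0.21, the median of all tested genes in count shares.

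The log2 ratio varied with the base composition of the transcripts, in the family and in the table at large. Across 13297 genes the Spearman rho between log2 ratio and the median GC content of a gene's transcripts was 0.45, and across 38 members it was 0.36; genes are not independent replicates, and all share the same 2 columns. SLC25A29, SLC25A22, SLC25A6 and SLC25A1 have GC contents of 65.6%, 64.1%, 63.1% and 65.6%. All genes near those values had a median log2 ratio of 0.62 (62 to 64% GC) and 0.83 (64 to 66% GC). SLC25A10, at 65.1% GC, and SLC25A39, at 62.3% GC, lay below 0 where most genes of like composition lay above. SLC25A15, with 53.6% GC, and SLC25A46, with 35.6% GC, differed from the medians of their own bins, which were 0.11 and -0.36.

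With the correction for GC content and length, SLC25A22 was at 0.35 and SLC25A1 at 0.14. SLC25A15 was at -1.10, SLC25A45 at -1.16 and SLC25A10 at -1.16. The part of base composition in any of these values was not tested beyond this.

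**Figure D4:**
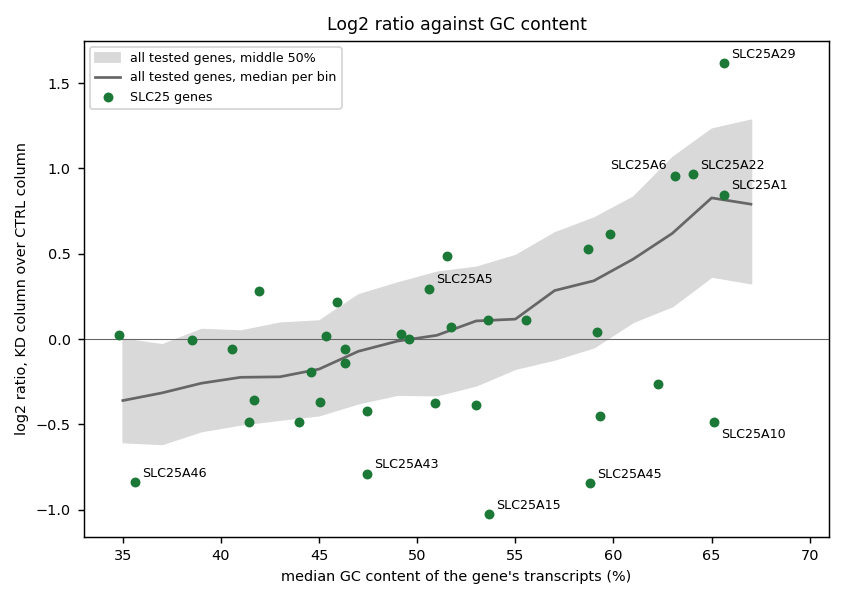
Log2 ratio of the KD-labelled over CTRL-labelled column against the median GC content of a gene's transcripts in percent; green points are 37 SLC25 genes with an FPKM averaging 1 or more and a GC content, the line is the median of all tested genes in bins of 2 percentage points and the grey band their middle 50%. The line climbs from -0.36 to about 0.8, and SLC25A6, SLC25A22 and SLC25A1 lie within the band at its right end. SLC25A29 is among the genes above the band, and SLC25A10, SLC25A45, SLC25A15, SLC25A43 and SLC25A46 are among those below it.

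The estimated count and the FPKM of a gene did not always move together. Their quotient, the count per FPKM, follows the transcript length by which the authors' software divided the count. Over 10886 genes with an FPKM averaging 1 or more and 50 or more counts in both columns, its log2 ratio between the columns had a median of 0.003, so a count was worth nearly the same FPKM in each column although the column totals differed. In 8 of 36 members with that depth the log2 ratio was 0.25 or more in size, against 15.2% of all genes; this threshold was chosen after the values were seen. For SLC25A5 and SLC25A6 it was 0.0006 and 0.0007.

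The count per FPKM was higher in the KD-labelled column for most of these members. Among all genes past the same threshold, 843 were higher in that column and 810 lower. SLC25A3 had 7790 counts in the KD-labelled column and 6107 in the CTRL-labelled column, while its FPKM values were nearly equal, and its log2 ratio was 0.02 from FPKM and 0.35 from unscaled counts. The same log2 ratio of counts per FPKM, 0.33, was seen for SLC25A16, and SLC25A26, SLC25A20 and SLC25A46 were at 0.30 each. Lower in the KD-labelled column were SLC25A42 at -0.43 and SLC25A11 at -0.28. SLC25A11 had 429 and 718 counts, so that its unscaled counts gave -0.74 against -0.45 from FPKM. The table holds no values for single transcripts, and which transcripts of these genes were counted was not analysed here.

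**Figure D5:**
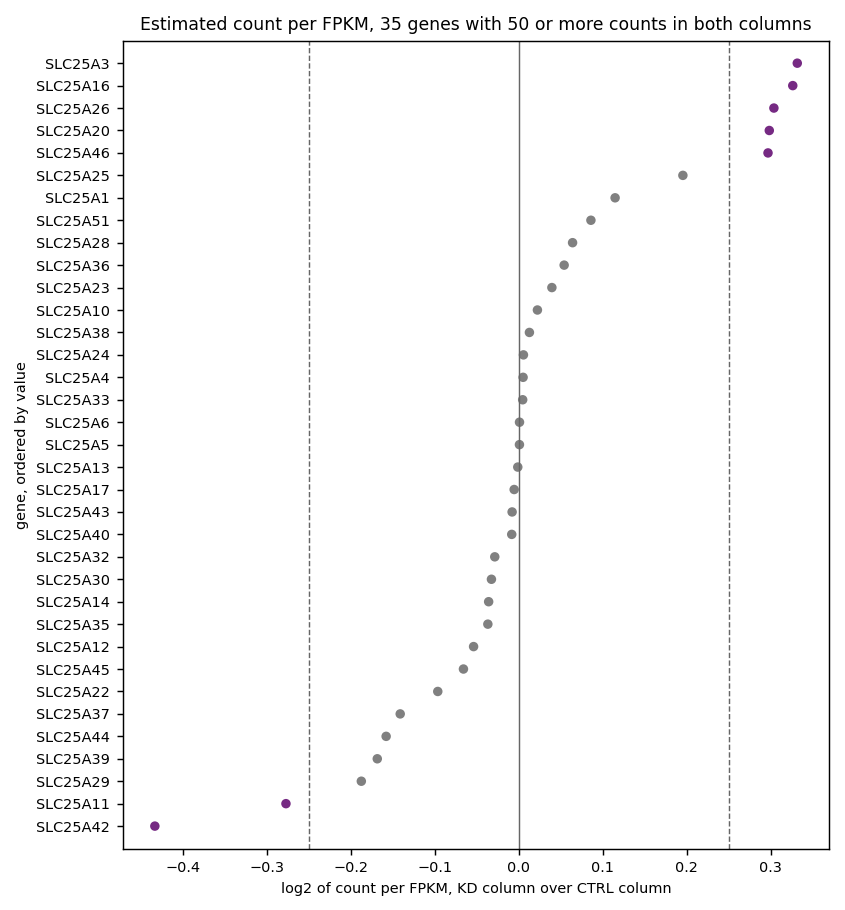
Log2 ratio of the estimated count per FPKM, KD-labelled column over CTRL-labelled column, for 35 SLC25 genes with an FPKM averaging 1 or more and 50 or more counts in both columns; dashed lines mark -0.25 and 0.25 and purple points lie beyond them. SLC25A3, SLC25A16, SLC25A26, SLC25A20 and SLC25A46 stand together at 0.30 to 0.33, SLC25A11 and SLC25A42 lie at the other side, and most other genes lie close to 0.

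On the chromosomes, 3 pairs of members lie within 100 kb of each other in GRCh37, and the genes of a pair did not share a level. SLC25A43 and SLC25A5 are 13.9 kb apart on chromosome X, on the same strand, and SLC25A5 had the highest FPKM of the family while SLC25A43 was under 10. SLC25A41 and SLC25A23 are 2.30 kb apart on chromosome 19, and the 7 and 1 counts of SLC25A41 stood beside 1925 and 1291 counts of SLC25A23. SLC25A29 and SLC25A47 are 16.8 kb apart on chromosome 14 on opposite strands, and SLC25A47 had 0 and 2 counts. Exons of 21 members overlap exons of a gene on the opposite strand.

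Genes that work beside the carriers were examined as fixed lists. Of 16 genes of the import route for carriers, 10 lay above 0 and 6 below, with a median log2 ratio of 0.29. TOMM22, a receptor of the outer membrane, was the only one past the threshold, at 57.2 in the KD-labelled column and 23.4 in the CTRL-labelled column, a log2 ratio of 1.26. TIMM22, the channel through which carriers enter the inner membrane, was at 32.8 and 29.4, and TOMM70A, the receptor that binds carrier precursors, was at 24.4 and 30.9. Of 19 other proteins of exchange across the mitochondrial membranes, 7 lay above 0 and 12 below, with a median of -0.16, and SFXN2, a sideroflexin, was at 2.91 and 9.09, a log2 ratio of -1.37. Family members that go by other symbols were close to equal for MTCH2 (206.8 and 205.8) and MTCH1 (152.6 and 154.0), while UCP2 was at 49.5 and 84.6, a log2 ratio of -0.76.

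Other mitochondrial gene sets had higher medians in the same columns. Their counts past the threshold are to be read beside the 8.51% of all genes at 1 or more and 3.27% at -1 or less. For 84 of 164 genes matched by respiratory chain symbols, pseudogenes included, that had an FPKM averaging 1 or more, the median was 0.38, with 19 at 1 or more and 2 at -1 or less. For 76 mitochondrial ribosomal protein genes the median was 0.19, with 13 at 1 or more and 0 at -1 or less. The middle 50% of these genes lay between -0.005 and 0.94 and between -0.09 and 0.64, and both ranges overlap that of the SLC25 genes, so the sets are given side by side with no test of their difference.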

How the data were processed

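RNA-seq libraries of K562 cells, 3 per group, were made with the TruSeq RNA kit, which does not mark strand. Per the labels and the paper's methods, the authors mapped reads with TopHat 1.4.1 to hg19 and Ensembl release 65 and computed FPKM with Cuffdiff 2.2.0. The deposited table gives 1 FPKM value and 1 estimated count per gene and group; how the 3 libraries were combined is not given in the sources used here. The table's group averages and its columns of fold changes, p-values and FDR, which compare the groups, were not used. Column totals were 13699340 (KD) and 11680567 (CTRL).

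Log2 ratios used a pseudocount of 1 FPKM and kept genes averaging 1 FPKM or more. Each count ratio was given a 95% exact binomial interval, and paralog ratios an exact conditional interval, for counting error only. Both treat the estimated counts as read counts. The functions were tested on simulated data. The limma tests planned across libraries were dropped, since each group has a single value. The alternatives were another pseudocount, other filters, counts, centring and a GC and length correction, of which the unscaled counts and the corrected paralog differences, like the count per FPKM, were chosen after seeing the data. Gene positions, exon overlaps, transcript lengths and GC content came from GENCODE release 44 on GRCh37 (47 of 48 members matched by Ensembl ID, SLC25A53 by symbol). Promoters came from RefSeq on GRCh38.p14 (40 of 48 members matched). Any member could be named, in full for those past a log2 ratio of 1, the 5 of highest mean FPKM and the listed paralog pairs; of the pathway lists, genes past a log2 ratio of 1 and up to 3 others could be named, and the respiratory chain and ribosomal lists are given by counts. The members and lists were chosen with earlier results of these data known. Protein sequences were not used here. Ratios and intervals were computed with scipy 1.17.1 and pandas 2.3.3 under Python 3.11.15, and figures drawn with matplotlib 3.10.9. The values of 1 member are not reported here; it is counted in the summaries and left out of the figures.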

Additional observations from a re-analysis of the deposited data

How the results depend on the processing

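No paired analysis was possible because replicates do not appear as columns of their own, and no library could be left out in turn for the same reason. A pseudocount of 0.1 gave 2 members higher by 1 or more (SLC25A22 and SLC25A29). Counts over column totals gave 3 members lower by 1 or more (SLC25A15, SLC25A43 and SLC25A45), and removing the trend with GC content and length gave 0 higher and 3 lower (SLC25A10, SLC25A15 and SLC25A45). Unscaled counts, the filter at an FPKM over 5, no filter, centring and the added family members each gave 1 higher and 1 lower. Counts over totals also put the members' median at -0.23 and that of the table at -0.21, since the larger KD-labelled total divides every count. Across the whole table the higher and lower counts were 1169 and 450 (72.2% higher) as reported. They were 951 and 1351 (41.3% higher) with counts over totals, 1549 and 791 with a pseudocount of 0.1, 1502 and 756 with unscaled counts, 773 and 407 with the trend removed, and 960 and 292 with the filter at an FPKM over 5. The cause of the other shifts was not tested. SLC25A29 ranged from 0.90 to 1.68 and SLC25A15 from -1.63 to -1.02. Of 39 members, 12 were above 0 and 14 below 0 under each of the 6 ways of computing the ratio, and the sign of 13 differed, SLC25A27 with 20 and 25 counts among them. For SLC25A10/SLC25A11 the difference of log2 ratios was -0.03 from FPKM and 0.27 from counts. Correction of the paralog differences for GC content and length, added after seeing the data, took SLC25A5/SLC25A6 from -0.66 to -0.06, SLC25A23/SLC25A24 from 0.53 to -0.14, SLC25A39/SLC25A40 from -0.29 to -1.12 and SLC25A10/SLC25A11 from -0.03 to -0.37. Depth limits SLC25A27, SLC25A53 and the 9 members averaging under an FPKM of 1.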
